A study of Mus musculus with 12 samples.

Results

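The large ribosomal subunit protein genes of the mouse were followed here in brain tissue, at the level of mRNA, of ribosome footprints and of mRNA bound to tagged ribosomes of excitatory neurons. Members were taken by symbol: Rpl followed by a number, with the endings a, l, l1 or al where present, and the P stalk genes Rplp0, Rplp1 and Rplp2. This rule found 52 of the 20504 genes in the table of reads counted over coding sequence (CDS), and it used no measured value. It does not take in the pseudogenes.

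All 6 mice were Camk2a-RiboTag animals, 3 months old, in which Cre driven by the Camk2a promoter switches the floxed last exon of Rpl22, exon 4, to a copy that carries an HA tag, so that ribosomes of forebrain excitatory neurons hold HA-tagged Rpl22. The controls carry this allele too. Vehicle (captisol) was given to mice A and B. Mice C and D were given AZD-8055, which blocks the kinase mTOR by competing with ATP, at 100 mg/kg by oral gavage. The right frontal lobe was taken 1 hour later, and each of these mice gave 1 poly(A) RNA-Seq library and 1 ligation-free ribosome profiling library. Mice E and F, labelled untreated, each gave RNA-Seq of the input lysate and of the HA immunoprecipitate (IP). Each condition therefore rested on 2 mice.

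The large subunit holds the peptidyl transferase centre, the tunnel through which the new chain leaves, and the stalk that recruits elongation factors. In vertebrates the mRNAs of its proteins belong to the terminal oligopyrimidine (TOP) class: they begin with a C followed by a run of pyrimidines, and their recruitment to ribosomes depends on mTOR, the kinase that couples protein synthesis to nutrients and growth signals. In the brain the same kinase is known for its part in synaptic plasticity.

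The starts of the members are shown first because the pyrimidine run defines the TOP class. RefSeq starts (GRCm38.p6, the assembly known as mm10) were at hand for 40 members, of which 36 were tested for the drug's effect. Each line gives 15 bases on either side of the annotated start on the transcribed strand, with capitals for the longest run made of a C and at least 4 further pyrimidines (C or T). The 4 members with the lowest translation change among those with an entry come first, followed by the 6 members that did not pass the test.
Rpl13a, chr7:45128731-45128760, minus strand: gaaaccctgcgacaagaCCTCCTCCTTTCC
Rpl37, chr15:5116598-5116627, plus strand: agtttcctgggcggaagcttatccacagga
Rpl13, chr8:123102335-123102364, plus strand: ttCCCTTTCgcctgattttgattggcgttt
Rpl22, chr4:152324421-152324450, plus strand: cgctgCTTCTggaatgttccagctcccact
Rpl22l1, chr3:28805493-28805522, plus strand: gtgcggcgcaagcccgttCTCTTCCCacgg
Rpl27, chr11:101442230-101442259, plus strand: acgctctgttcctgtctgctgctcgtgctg
Rpl19, chr11:98026909-98026938, plus strand: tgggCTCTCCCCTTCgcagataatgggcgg
Rpl36al, chr12:69184053-69184082, minus strand: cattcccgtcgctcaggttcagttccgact
Rplp2, chr7:141447636-141447665, plus strand: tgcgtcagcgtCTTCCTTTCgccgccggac
Rpl7l1, chr17:46782642-46782671, minus strand: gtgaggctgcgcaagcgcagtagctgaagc

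Within 20 bases on either side of the start, 27 of the 36 tested members (75%) held such a run, against 52% of the other 8819 tested genes with an entry. A run of 8 or more bases stood at 18 members (50.0%) and at 16.4% of the other genes. This window is wider than the lines above. Rpl36al, for example, has no capitals there but counts with a run of 5, and Rpl13, marked over 7 bases, counts with 10. Only the transcribed strand was searched, and for a gene with several starts the start with the longest run was taken. Members with and without a run overlapped in their response to the drug: the median change in translation efficiency, defined further on, was -0.90 for the 18 with a run of 8 or more, -1.07 for the 9 with a run of 5 to 7 and -0.74 for the 9 with none, with ranges from -1.35 to -0.35, from -1.26 to -0.39 and from -1.29 to -0.10 in the same order. An annotated start may lie several bases from the start used in brain, and a window without a run says only that these letters are absent from it.

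CDS counts reached 9395385 to 10649939 a library in the RNA-Seq of mice A to D and 3503873 to 9259938 in the footprints. The exon table, used for mice E and F, held 19681269 to 27878212 counts a library. Of the 52 members, 48 had enough counts for the drug comparisons. Rpl34 had 0 CDS counts in all 12 libraries, Rpl3l, the paralog of Rpl3, had 2 to 21, Rpl39l had 0 to 2, and Rpl10l had 0 in RNA-Seq with 6, 3, 2 and 2 footprints in mice A to D. In the exon table Rpl26 had 0 or 1 count and Rpl30 had 2 to 7, although both had 2245 to 5187 CDS counts in each RNA-Seq library, so 46 members were tested in the IP with exon counts and 48 with CDS counts. Ribosomal protein genes have many processed pseudogenes. The counts are of uniquely mapped reads, so that reads matching a gene and its pseudogene alike would be missing from both. Members are therefore compared with themselves between libraries, and not with each other in level. The ranking by translation efficiency at rest, given below, is an exception and carries this limit.

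The members took up 1.58% and 1.60% of the RNA-Seq counts of the vehicle mice and 1.57% and 1.56% of those of the AZD-8055 mice. In the footprints they took up 0.795% and 0.776% with vehicle and 0.434% and 0.445% with AZD-8055. The share of RNA stayed level while the share of footprints was lower in both treated mice. In the RiboTag libraries the share was 1.20% in both inputs, 2.31% in the IP of mouse E and 2.37% in the IP of mouse F. The shares are descriptions without a test.

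**Figure D1:**
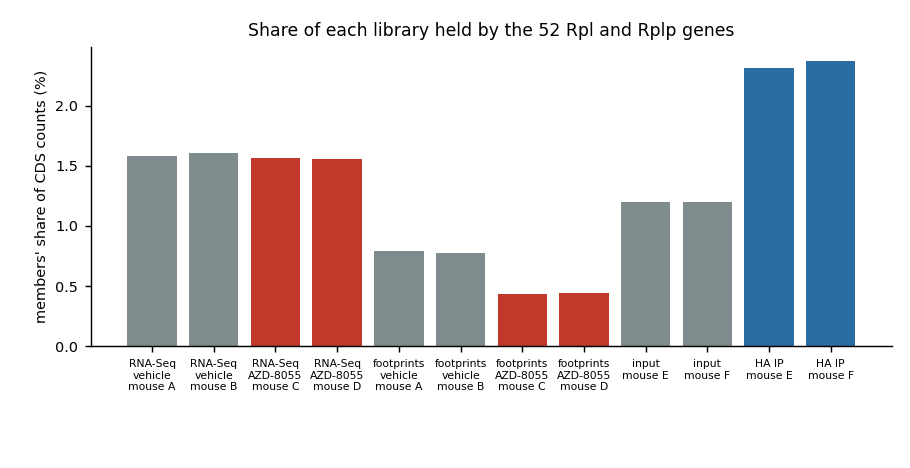
Share of all CDS counts held by the 52 members (y axis, percent) in each of the 12 libraries (bars, named by library type, treatment and mouse). The AZD-8055 footprint bars, 0.434% and 0.445%, stand below the vehicle footprint bars, 0.795% and 0.776%, and the IP bars stand above the input bars.

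Translation efficiency (TE) is the ratio of footprints to RNA-Seq counts of a gene, after each library was divided by its size factor, and is given as log2. With vehicle, 43 of the 48 members with enough counts lay below the median of all 10882 genes. Their median log2 TE was -0.86, a ratio of 0.550, against 0.02 over all genes. The loss of reads shared with pseudogenes need not be equal in short footprints and in RNA-Seq. Its part in the members' TE, and in their ranking, was not tested. The members' values spread with an SD of 0.62, less than the 0.99 over all genes, while mice A and B differed with a median SD of 0.08 per member. TE of the members in mouse A against mouse B gave r = 0.98 (Spearman's rho 0.96, 48 genes, a description across genes that share both libraries of each mouse).

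The lowest TE belonged to Rpl31, a protein at the rim of the exit tunnel, where log2 TE stood at -2.53 (mouse A) and -2.75 (mouse B). This put it at the 1.19 percentile of all genes. Rpl37 followed with -2.21 and -2.19, Rplp1 with -2.08 and -2.26, and Rpl13a with -1.84 and -1.93. All 4 lay below the 5th percentile in the mean of both mice, as did Rplp2 at the 4.97 percentile. The highest TE was that of Rpl38, at 0.27 and 0.17, the 59.7 percentile. Rpl15 stood at 0.20 and 0.14, Rpl36al at 0.21 and 0.08, and Rpl7l1 at 0.23 and -0.03; these neighbours did not differ beyond the spread between the mice. With Rpl27, at 0.14 and -0.04, they were the 5 members above the median of all genes. A core protein such as Rpl38 and the paralogs Rpl36al and Rpl7l1 thus sat together at the top, and none reached the upper part of the range of all genes.

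AZD-8055 lowered the TE of most members. TE fell in 42 of 48 members at an adjusted p of 0.05 in edgeR's quasi-likelihood test of the interaction between library type and treatment, and rose in 0; of all 11797 genes tested, 0.788% were called lower. The log2 change had a median of -0.88 over the members, a 1.84-fold reduction, against -0.01 over all genes, and its estimate was below 0 in all 48. In 17 members the fall was called and exceeded 2-fold, against 0.297% of all genes. Both AZD-8055 mice lay below both vehicle mice in 47 of 48 members, which was so for 20.8% of all genes tested; the exception was Rpl7l1. The 42 members made up 45.2% of the 93 genes called lower, 29 more were small subunit genes and 22 were neither. With the mouse as a block the count was 45, since Rpl22l1 (adjusted p = 0.0325), Rpl27 (0.017) and Rpl19 (0.011) then passed, as they also did without the filter on low counts.

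**Figure D2:**
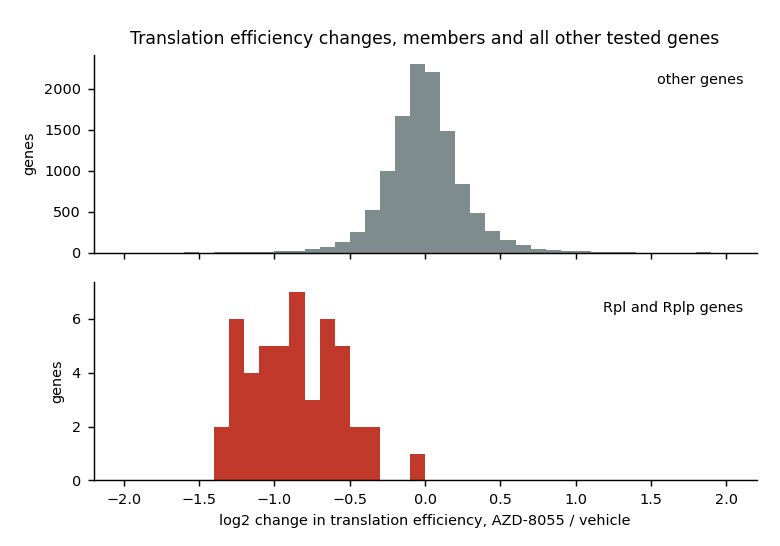
Number of genes (y axis) by log2 change in TE, AZD-8055 over vehicle (x axis, bins of 0.1), for the other tested genes (upper panel, of which 9 lie outside the axis) and for the 48 members (lower panel). The members lie between -1.35 and -0.10, around a median of -0.88, while the other genes centre near 0.

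Leaving out mouse A, whose footprint library was the deepest, reduced the 42 calls to 27 and the 17 calls over 2-fold to 11. Among the calls then lost were those of Rpl8, Rpl15, Rpl18, Rpl21, Rpl22, Rpl23, Rpl24, Rpl28, Rpl29, Rpl32, Rpl36, Rpl41, Rplp0 and Rplp1. Rpl15, Rpl18, Rpl23 and Rpl24 lost their calls whichever mouse was left out, Rpl41 also without mouse B or C, Rplp0 also without C, and Rplp1 also without C or D. Without mouse B 32 calls were left, without mouse C 30 and without mouse D 34. Calls of 25 members held without each of the 4 mice in turn, and among the 42 the log2 change was -0.46 or lower in every one of these fits.

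**Figure D3:**
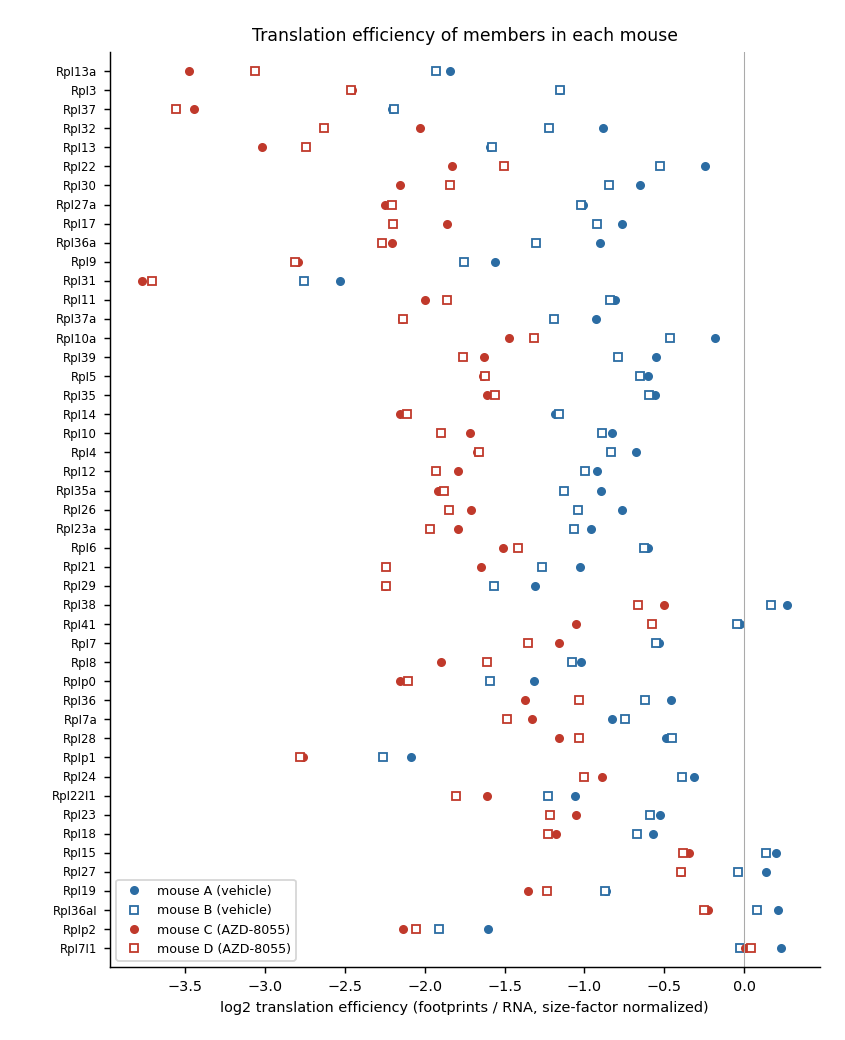
log2 TE (x axis) of the tested members, 1 left out (y axis, ordered by change), in vehicle mice A and B (blue) and AZD-8055 mice C and D (red). In each member shown both red points lie to the left of both blue points, except in Rpl7l1, at the bottom.

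Among the core proteins given no other role here, Rpl13a, Rpl37, Rpl32 and Rpl13 fell most. Only Rpl13a fell more than Rpl3, which is described below with its group. Rpl13a, a surface protein that also takes part in silencing of inflammatory mRNAs outside the ribosome, had log2 TE of -1.84 and -1.93 with vehicle and -3.48 and -3.06 with AZD-8055. Its footprints, divided by size factor, were 1166 and 1127 with vehicle against 397 and 511 with the drug, whereas its RNA stood at 4188 and 4293 against 4423 and 4270. Only the footprints separated the treatments, and the TE change was -1.35 ± 0.13 (SE, n = 2 mice a group; adjusted p = 2.84e-05), a 2.55-fold fall. Rpl37 went from -2.21 and -2.19 to -3.44 and -3.56 (change -1.29 ± 0.13, adjusted p = 3.24e-05). Rpl32 went from -0.88 and -1.22 to -2.03 and -2.63 (-1.29 ± 0.18, adjusted p = 6.42e-04). Rpl13 went from -1.59 and -1.58 to -3.02 and -2.74 (-1.27 ± 0.12, adjusted p = 2.79e-05). In each of the 4 the treated mice lay below the vehicle mice without overlap, and only Rpl32 lost its call without mouse A. Of the 23 core proteins given no other role here, 22 fell, 8 of them over 2-fold. Their changes ran from -1.35 to -0.45 with a median of -0.81, against -0.88 over all members.

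The proteins around the peptidyl transferase centre, the subunit interface and the L1 stalk fell in 4 of 4 cases. Rpl3, whose extension reaches towards the peptidyl transferase centre, had log2 TE of -1.15 and -1.16 with vehicle and -2.46 in both AZD-8055 mice, the closest replicates among the strongly lowered members. Its change was -1.30 ± 0.09 (adjusted p = 9.00e-07). Rpl10a, which sits on the L1 stalk, went from -0.18 and -0.47 to -1.47 and -1.32 (-1.07 ± 0.12, adjusted p = 5.02e-05). Rpl10, a late-joining protein needed before subunits can join, changed by -0.95 ± 0.11 and Rpl8 by -0.70 ± 0.12, the latter with its call lost without mouse A, B or C.

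Both proteins of the 5S ribonucleoprotein fell. Rpl5 and Rpl11 bind 5S rRNA, and outside the ribosome they restrain Mdm2. Rpl5 had log2 TE of -0.60 and -0.65 with vehicle and -1.64 and -1.63 with AZD-8055, and Rpl11 -0.81 and -0.84 against -1.999 and -1.86. The changes were -1.002 ± 0.10 and -1.09 ± 0.11 (adjusted p = 3.24e-05 and 3.74e-05), and neither call depended on a single mouse.

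At the stalk 3 of 4 members fell. Rplp0 is its base protein, and Rplp1 and Rplp2 form the dimers that reach the elongation factors. Rplp0 went from -1.32 and -1.59 to -2.15 and -2.11 (-0.68 ± 0.12, adjusted p = 0.00548), and Rplp1 from -2.08 and -2.26 to -2.76 and -2.78 (-0.60 ± 0.10, adjusted p = 0.00501). Rplp2 stood at -1.61 and -1.91 with vehicle and at -2.13 and -2.05 with AZD-8055, so that mouse B lay close to mouse D, and its change of -0.35 ± 0.13 did not pass (adjusted p = 0.512). Rpl12, which joins Rplp0 at the base, changed by -0.90 ± 0.10. The group had a median of -0.64, and none of its calls exceeded 2-fold.

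At the exit tunnel 7 of 8 members fell, with a median of -0.96. Rpl17, Rpl31 and Rpl39 fell over 2-fold, by 1.18, 1.10 and 1.04 on the log2 scale. Rpl19, also at the rim, had log2 TE of -0.86 and -0.87 with vehicle and -1.35 and -1.23 with AZD-8055. The treatments did not overlap in Rpl19, but its change of -0.42 ± 0.10 did not pass (adjusted p = 0.0731); it passed with the mouse as a block, with DESeq2 and without the filter on low counts. Of the proteins that bridge to the small subunit, Rpl30 changed by -1.24 ± 0.13, Rpl24 by -0.60 ± 0.11 and Rpl41, the shortest of the ribosomal proteins, by -0.74 ± 0.15; all 3 were called, the last with mice C and D apart at -1.05 and -0.58.

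Rpl22, the protein that carries the tag in these animals, and its paralogs were examined by mouse. Rpl22 (chr4:152324436-152334082) had log2 TE of -0.25 and -0.53 with vehicle and -1.83 and -1.503 with AZD-8055. Its change was -1.26 ± 0.17 (adjusted p = 4.93e-04); without mouse A it was -1.13 with an adjusted p of 0.0605. The tagged and the untagged transcript are not separated in gene counts. Rpl22l1 (chr3:28805508-28807424), which can take the place of Rpl22 in the ribosome, stood at -1.06 and -1.23 against -1.61 and -1.81, without overlap, and its change of -0.59 ± 0.14 did not pass (adjusted p = 0.0834). Rpl36al (chr12:69182734-69184067), a near-identical copy of Rpl36a, with which it may share reads, stood at 0.21 and 0.08 against -0.23 and -0.25, also without overlap (-0.39 ± 0.11, adjusted p = 0.213). Rpl7l1 (chr17:46773907-46782656) stood at 0.23 and -0.03 against 0.00 and 0.04, with the treatments overlapping (-0.10 ± 0.16, adjusted p = 0.957). All 3 tested paralogs were thus among the 6 members that did not pass, the others being Rpl27, Rpl19 and Rplp2. The fall of Rpl22l1 was no smaller than that of the called Rpl23 (-0.58 ± 0.11), but its SE was larger.

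The gap between paralog and parent gene, taken within each mouse, shifted in favour of the paralog with the drug in each pair. The log2 TE of Rpl22l1 minus that of Rpl22 was -0.81 and -0.70 in mice A and B and 0.22 and -0.30 in mice C and D. For Rpl7l1 minus Rpl7 it was 0.77 and 0.53 against 1.17 and 1.39. For Rpl36al minus Rpl36a it was 1.11 and 1.39 against 1.98 and 2.02. The gap rose by 0.71, 0.63 and 0.75 between the group means, without overlap, but an exact permutation test of 2 mice against 2 cannot give less than p = 0.333 (two-sided), and gave that value in all 3 pairs. These pairs were chosen for their relation by name, with the changes of the single genes already known, and each gap restates those changes within its pair. The share of other gene pairs without overlap was not taken.

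Rpl27, a core protein, had log2 TE of 0.14 and -0.04 with vehicle and -0.39 in both mice with AZD-8055. The treatments did not overlap, and the change of -0.45 ± 0.10 narrowly missed the threshold (adjusted p = 0.0583). Rpl38 and Rpl15, the members with the highest TE at rest, were both called, at -0.80 ± 0.11 and -0.53 ± 0.10, and Rpl31, with the lowest, at -1.10 ± 0.13.

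Over the 48 members the changes spread with an SD of 0.30, against a median SE of 0.11. The change from mouse A to C and the change from mouse B to D, which share no library, gave r = 0.75 (Spearman's rho 0.76, 48 genes) among the members and r = 0.14 (0.13, 11769 genes) among all genes. The numbers that join A to C and B to D are labels only, and the members share the normalization of each library.

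The fall was seen in footprints and not in RNA. Footprints alone fell in 44 of 48 members, against 0.982% of 10695 genes tested, with a median log2 change of -0.90; those that did not pass were Rpl41 (adjusted p = 0.0552), Rpl22l1 (0.0516), Rplp2 (0.189) and Rpl7l1 (0.731). Rpl27, Rpl19 and Rpl36al, which did not pass in TE, passed here at -0.55, -0.40 and -0.49. RNA changed in 0 of 48 members in edgeR, against 0.148% of 12182 genes tested in either direction. At an unadjusted p of 0.05 the count was also 0, and DESeq2 called 0. The RNA changes ran from -0.16 to 0.10 with a median of -0.02. The 34 marker genes of brain cell types examined gave 0 calls in RNA, footprints and TE alike in edgeR, with 5, 5 and 2 at an unadjusted p of 0.05, and 0, 1 and 0 calls in DESeq2, the 1 being Sst, higher in footprints. In bulk tissue, fewer cells of a type and less RNA per cell cannot be told apart.

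**Figure D4:**
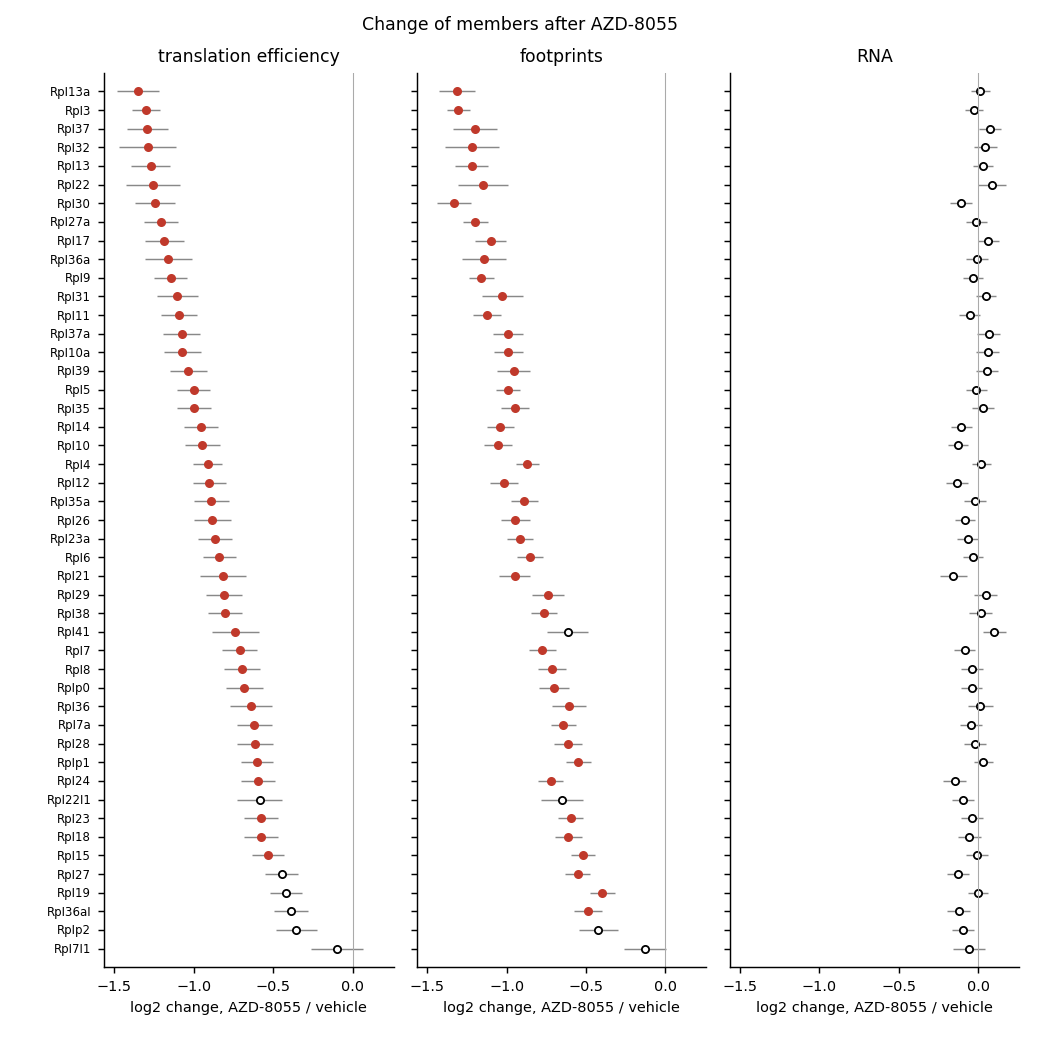
log2 change after AZD-8055 (x axis) of the tested members, 1 left out (y axis), in TE, footprints and RNA, with bars for the SE. Red points passed an adjusted p of 0.05, as most did in TE and in footprints and 0 in RNA, where the points stay between -0.16 and 0.10.

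Other genes of the pathway were read from lists. Of the small subunit genes 29 of 31 fell in TE, with a median of -0.94; Rps12 changed by -1.36 and Rps27l, a paralog, by -0.18 without passing. Of 18 other TOP mRNAs and ribosomal fusion genes 13 fell, with a median of -0.71, led by Eef1a1, an elongation factor, at -1.59, and Pabpc1, the poly(A) binding protein, at -1.34. The fusion gene Fau fell by 0.96 on the log2 scale. None of the 47 genes of the mitochondrial large subunit passed in either direction in edgeR (median -0.02; 2 at an unadjusted p of 0.05), nor any of 14 mTOR pathway genes (median -0.03; 0 at an unadjusted p of 0.05), and DESeq2 called 0 of either list. Members, small subunit genes and other TOP mRNAs thus changed in the same direction, and no test set one list against another.

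In the HA IP of mice E and F all 46 members tested were higher than in input. With exon counts 46 of 46 passed, against 33.7% of 13254 genes called higher, and 0 were lower under any setting run, at the adjusted threshold of edgeR or DESeq2. The median log2 change was 0.92, against -0.03 over all genes, and 19 members exceeded 2-fold, against 11.7% of all genes. With CDS counts 48 of 48 passed, against 36.5% of 12211 genes called higher, with a median of 1.36 against -0.07 over all genes, and 45 exceeded 2-fold, against 20.4%. Exon and CDS counts were scaled by separate factors, so a 2-fold threshold does not mean the same in both. Scaling by library totals moved the median of all genes to -0.31 and that of the members to 0.64, with 45 of 46 still called and 7 over 2-fold; relative to all genes the members stayed higher under each scaling.

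The rise was not particular to the large subunit. Of the small subunit genes 30 of 31 rose, with a median of 0.86, and of the mitochondrial large subunit genes 46 of 47, with a median of 1.27. Markers of the targeted cells moved with it: 6 of 7 excitatory markers were called higher (with CDS counts 5 higher and 2 lower), and their summed normalized counts ran from 137617 to 152792 in input and from 256486 to 282084 in IP. Of 27 markers of inhibitory neurons, glia and endothelium 26 were lower in the IP, none of them at 0 in all libraries. The summed counts of the 5 oligodendrocyte markers, for example, were 72193 and 65449 before and 10897 and 10541 after the IP, and those of the 5 astrocyte markers 20325 and 18827 against 1780 and 2014. The part of this shift in cell types in the members' rise was not tested.

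Among the members the rise differed in size. Rpl24, a bridge protein, had the highest, with normalized exon counts of 2542 (mouse E) and 2202 (mouse F) before the IP and 7408 and 6610 after it. Mice E and F gave log2 changes of 1.54 and 1.59, with a fitted value of 1.56 ± 0.11 (adjusted p = 1.04e-04), a 2.96-fold rise. Rpl27 rose by 1.48 and 1.502 in the 2 mice and Rpl36al by 1.52 and 1.45. The lowest was Rpl23a, a tunnel exit protein that contacts targeting factors, with 3511 and 3492 counts before and 4717 and 4820 after the IP. The 2 mice gave 0.43 and 0.46 (0.45 ± 0.08, adjusted p = 0.00349), and it lost its call under library totals. Rplp1 rose by 0.59 and 0.56 and Rplp0 by 0.54 and 0.63, both called. The ranking was shared by mice E and F, with r = 0.94 and rho 0.93 over 46 members. Over all 11677 genes compared it was 0.97 for both, and these values are descriptions.

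Members that form one structure differed here as well. At the stalk Rplp2 rose by 1.35 and 1.28 in mice E and F, well above Rplp0 and Rplp1. In the 5S ribonucleoprotein Rpl11 rose by 1.17 and 1.19 and Rpl5 by 0.70 and 0.81. Rpl22 itself rose by 0.82 and 0.70 (0.77 ± 0.12, adjusted p = 0.00164) and Rpl22l1 by 1.34 and 1.31 (1.33 ± 0.09, adjusted p = 9.52e-05), a gap of 0.52 and 0.61 in the 2 mice. Rpl7l1 rose by 0.91 and 0.71 and Rpl7 by 0.90 and 0.93, with a gap of 0.01 and -0.23 on exon counts and of -0.35 and -0.33 on CDS counts. Of the untested paralogs, Rpl3l had normalized exon counts of 9.5 and 15.5 before and 6.4 and 7.8 after the IP, too few for a statement.

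The 2 experiments were set side by side gene by gene. The change in TE under AZD-8055 in mice A to D and the change in the IP in mice E and F, which share no library, gave r = 0.50 and rho = 0.53 over 46 members with exon counts, and r = 0.49 and rho = 0.52 over 48 with CDS counts. Members with the largest rise in the IP were thus, by and large, those with the smaller fall under the drug. Of the 10 members highest in the IP (1.20 to 1.56) 5 had a called fall in TE, with a median of -0.58 and none below -1. Of the 10 lowest (0.45 to 0.76) all 10 had one, with a median of -0.93 and 4 below -1. Over all 48 members tested in TE 42 had one, with a median of -0.88, and 17 were called over 2-fold. The 10 lowest thus lay near the whole list, and the 10 highest fell less than it. Over 31 small subunit genes r was 0.37 and rho 0.39, and over all 11678 genes tested in both r was -0.06 and rho -0.03. Rpl7l1, with the smallest fall and a rise of 0.81, and Rplp0 and Rplp1 lay off this trend. TE at rest against the IP change gave r = 0.40 and rho = 0.41 over 46 members with exon counts. With CDS counts it gave r = 0.29 and rho = 0.30 over 48. TE of mouse A against the change from mouse B to the mean of C and D gave r = 0.39 and rho = 0.32 over 48 members. The part of TE at rest in the relation of drug and IP changes was not tested. The points share each gene's length, base composition and counting rules, and no p is attached.

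**Figure D5:**
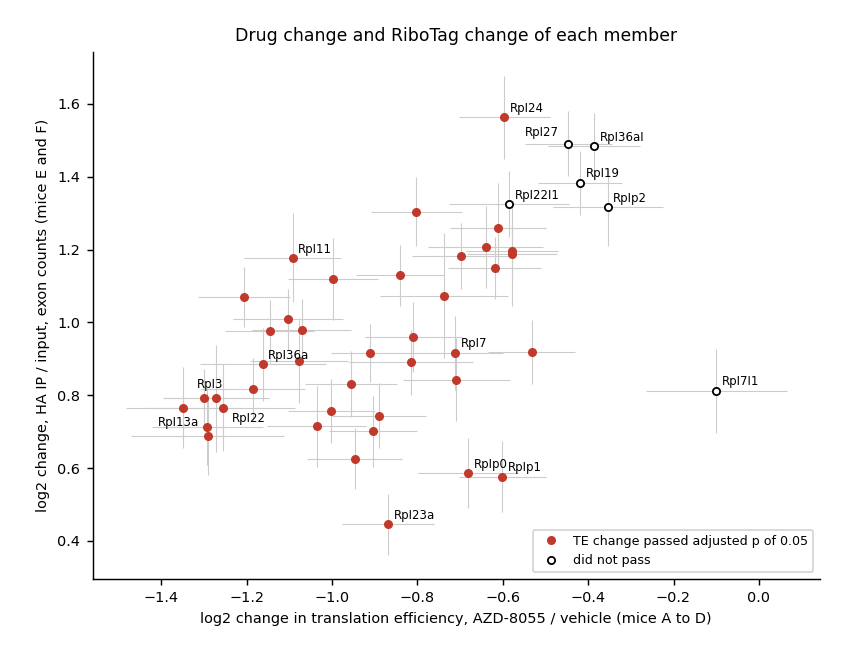
log2 change in TE under AZD-8055 (x axis, mice A to D) against log2 change of the HA IP over input on exon counts (y axis, mice E and F) for 46 members, with bars for the SE of each. Open points did not pass in TE; 5 of these 6 lie at the upper right, above 1.3 in the IP, and Rpl7l1 lies apart at 0.81.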

How the data were processed

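The authors trimmed reads, removed rRNA with Bowtie2, aligned to mm10 with TopHat2 and counted with HTSeq in strict intersection mode (versions not given in the sources used here); they deposited raw counts per gene over CDS (12 libraries) and exons (8). Libraries were grouped by the labels. Genes averaging 37 counts or more in the libraries compared were tested with edgeR 4.0.16 (quasi-likelihood, TMM, Benjamini-Hochberg adjusted p under 0.05): TE as the interaction of library type and treatment, footprints, RNA, and IP against input. The study's own TE software was not used here. Resting TE needed 75 counts of each kind summed over mice A and B and used DESeq2 1.42.0 size factors, so differences of the TE values can depart slightly from the fitted changes; IP values by mouse use TMM. SE is the change divided by the root of F. On simulated counts, with changes set larger than that of any member, 89.5% of 200 changed genes were recovered for TE. Libraries of 1 mouse pair: deviations of RNA and footprints correlated at 0.24 (A minus B) and 0.20 (C minus D), of input and IP at 0.55 (E minus F). Replicates differed beyond counting noise in each group. Genes named in full were the extremes of TE, TE change and IP change, members that did not pass, and 13 fixed by role. Members and lists were chosen with earlier results of these data known. Alternatives were DESeq2, other scalings and filters, a mouse block and left-out libraries. Intervals cover these mice only. Values of 1 member are not reported here.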

Additional observations from a re-analysis of the deposited data

How the results depend on the processing

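Counts of members lower in TE, lower in footprints, changed in RNA and higher in the IP stayed within 1.5 times their value under each setting run, except for TE without vehicle mouse A. Leaving out 1 mouse gave 27 to 34 members lower in TE (11 to 18 over 2-fold), 31 to 46 lower in footprints and 0 changed in RNA, and a median TE change of -0.91 to -0.81. Leaving out 1 library of the IP, chosen after seeing the data, gave 46 members higher each time (17 to 23 over 2-fold) and a median of 0.92 to 0.98, and leaving out a mouse gave medians of 0.92 and 0.97 without a test. The median TE at rest was -0.91 and -0.83 in single mice and -0.96 with library totals. The median IP change was 0.64 with library totals (7 over 2-fold), 1.01 without a filter (all genes -0.17), 0.86 with at least 100 counts and 1.36 with CDS counts (45 over 2-fold), also 1.36 and 45 with CDS counts and the replicate block, added after seeing the data. The replicate block gave 45 members lower in TE and changed no call in the IP. Of single members, 47 TE calls were lost and 7 gained over all settings, 45 of the losses by leaving out a mouse, and 1 IP call was lost. The cause of these shifts was not tested. The footprint libraries were the shallowest, and no setting varied their depth.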

Other observations

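After each table was scaled by its own factors, the IP change was larger over CDS than over exons in each of the 46 members with both. The median difference was 0.46 on the log2 scale, against 0.15 over 12156 genes tested in both. Raw counts of Rpl3, for example, were 9228 (CDS) and 9227 (exons) in the input of mouse E, and 11616 in its IP in both tables. Scaled, they were 7327 (CDS) and 8777 (exons) in that input, and 16796 and 14906 in that IP. With raw counts almost the same in both, the difference in Rpl3 came from the separate scaling factors. Rpl22 had the smallest difference, 0.16, with a change of 0.77 over exons and 0.92 over CDS. Rpl7l1 followed at 0.22 and Rpl41 at 0.28, and the largest was 0.49, in Rpl15. In the input of mouse E raw CDS and exon counts were 553 and 1074 for Rpl22 and 422 and 816 for Rpl7l1. They were 1712 and 4045 for Rpl41, and 2334 and 3171 for Rpl15. These genes were chosen after their values were seen, and the cause of the differences between members was not tested.

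The members' share of CDS counts was 1.20% in the inputs of mice E and F, labelled untreated, and 1.58% and 1.60% in the RNA-Seq of vehicle mice A and B. Treatment and library series cannot be told apart in this difference, so the IP was compared with its own input only.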
